A study of Mus musculus with 26 samples.

Results

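Microglia of the nucleus accumbens (NAc) were compared with microglia of the medial prefrontal cortex (mPFC) in TLR-DKO mice. The comparison rests on the 14 arrays whose titles name TLR-DKO microglia, 7 from the NAc and 7 from the mPFC, out of 26 arrays in the series. In the mPFC, 4 arrays were from naive mice and 3 from mice that had undergone repeated social defeat stress (R-SDS), an exposure to an aggressor mouse. In the NAc, 3 arrays were from naive and 4 from R-SDS mice. Naive mice were moved between cages instead of being defeated, and tissue was taken 1.5 h after the last session of either treatment.

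All of these mice were C57BL/6 with the genotype TLR-DKO; CX3CR1EGFP/+, so every group carried both the TLR deletion and EGFP driven from the Cx3cr1 locus. TLR-DKO is not spelled out in the labels; in the published study the name stands for mice without Tlr2 and Tlr4, receptors of the innate immune system. Stressed TLR-DKO mice are described as resilient in the labels, so stress and that behavioural outcome cannot be told apart. EGFP-positive cells were sorted from a 1.5 mm punch, and each array holds cells pooled from 3 to 6 mice, with 500 pg of RNA amplified before labelling. The other 12 arrays came from CX3CR1EGFP/+ mice without the deletion (called WT here), 6 from each region, 3 naive and 3 R-SDS, the stressed ones labelled susceptible, and serve only as a reference for the region difference. The series comprises 2 independent experiments with different mice. The labels do not say that the NAc and mPFC pools came from the same mice.

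Microglia are the resident macrophages of brain tissue. They keep a core programme that includes Cx3cr1, P2ry12 and Tmem119, and regional differences in immune, metabolic and lysosomal genes have been described for them. Cx3cr1 is not particular to microglia: macrophages along blood vessels and meninges express it too, so an EGFP gate without further markers can hold both. The neurons around them differ sharply, since NAc neurons are mostly inhibitory projection neurons that make peptides such as enkephalin, whereas the mPFC is rich in glutamatergic pyramidal neurons.

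Each value is log2 of a probe's background-subtracted signal minus the 75th percentile of its array, here called the level, and a difference is NAc minus mPFC in log2 units, so positive differences are higher in the NAc. The 75th percentile ran from 137 to 287 signal units over the 14 arrays, and 50% to 63.3% of spots were well above background. After a filter on dim probes 24739 genes were tested, of which 15583 (63.0%) were well above background on all 14 arrays. Arrays of the same region and condition correlated across genes with Pearson r of 0.81 to 0.92 (median 0.879), and arrays of the other region in the same condition with 0.81 to 0.93 (median 0.881). The first principal component (16.8% of the variance) put 6 of 6 arrays of the first of 2 scan days on one side. On the second component (11.7%) NAc arrays scored 6 to 85 and mPFC arrays -113 to 37. The naive mPFC arrays were the lowest there, at -113 to -45. TLR-DKO mPFC naive replicate 1 had the lowest mean r with the other 13 arrays (0.83). The arrays lie on 4 slides, and each slide holds a single region, with 1 slide of each region scanned on each day. Slide was therefore fitted as a random block, and values within a scan day are given where they matter. Within a day each region is a single slide, and the slide and the region cannot be told apart there. Precision is set by the number of slides as well as arrays, and each region has only 2 slides. The block uses a correlation shared by all genes, so the SE of a gene with a larger slide effect is too small. Nothing in the labels says whether replicate pools were sorted separately, so p-values measure the spread between these arrays.

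The targeted genes and the sorting marker were checked first. For Tlr2, 0 of the 14 arrays were well above background, with levels of -4.60 to -3.46 in the NAc and -4.23 to -3.57 in the mPFC. The Tlr4 probe gave levels of 1.47 to 3.08 (median 2.88) in the NAc and 1.43 to 3.86 (median 2.46) in the mPFC. Where this probe lies with respect to the deletion is not known, and it therefore gives no check of the genotype. Cx3cr1, whose locus drives EGFP, stood at 8.18 to 8.81 (median 8.38) in the NAc and 8.23 to 8.69 (median 8.53) in the mPFC. The ranges overlapped almost fully for both genes, and the differences were 0.07 ± 0.27 (log2, SE) for Cx3cr1 and 0.33 ± 0.44 for Tlr4.

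The main question was which genes differ between the regions over both conditions. No gene passed the threshold of 0.05 (0 of 24739, 0%, limma with Benjamini-Hochberg adjustment, smallest adjusted p 0.715). At an unadjusted p under 0.05 there were 946 genes (3.82%), fewer than the 1237 that evenly spread p-values give. Of these, 286 (1.16%) were higher and 660 (2.67%) lower in the NAc. The median size of the difference was 0.31, and its median SE was 0.47. Precision depended on brightness, as the median SE was 0.38 for the 15583 genes above background on all 14 arrays and 0.69 for the other 9156. Differences of 4-fold or more (2 log2 units) were seen in 239 genes, and 4 of those were above background on every array. These counts do not show that the regions are alike, because a typical SE is larger than a typical difference.

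Genes with the smallest p in each direction are given as values, since none passed. Naalad2, which encodes a peptidase that cleaves the neuropeptide N-acetylaspartylglutamate, had NAc levels of 1.73, -0.24 and -2.55 in naive mice and 0.61, -0.29, -2.51 and 0.43 after R-SDS. Its mPFC levels were -3.45, -4.47, -4.50 and -5.60 in naive mice and -4.37, -3.37 and -5.89 after R-SDS, and only the first of these 7 was well above background. All 7 NAc arrays lay above all 7 mPFC arrays, as they did for 6 genes in all (0.0243%), and the difference was 4.15 ± 0.94 (unadjusted p = 2.49e-04, limma adjusted p = 0.769). It was 4.22 in naive and 4.09 in R-SDS mice, 4.61 on the first scan day, 4.15 on the second and 4.55 in WT. With normexp background correction, which lifts dim values towards a common floor, it was 1.83.

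Dmrtb1, a DM-domain transcription factor known from germ cells, also separated the regions completely. Its NAc levels ran from 0.50 to 1.74 (median 0.97) and its mPFC levels from -1.22 to -0.23 (median -0.34), all well above background. The difference was 1.53 ± 0.32 (limma adjusted p = 0.715), with 1.59 in naive mice, 1.47 after R-SDS and 1.14 in WT. Src, a tyrosine kinase of adhesion and receptor signalling, stood at -1.82 to 2.13 (median 0.98) in the NAc and at -3.33 to -0.42 (median -2.72) in the mPFC. Its regions overlapped through mPFC naive replicate 2, at -0.42, and NAc R-SDS replicates 1 and 2, at -1.82 and -0.93, and the difference was 3.07 ± 0.65. The mannosyltransferase gene Alg12, which acts in N-glycan assembly, ranged from -1.03 to 2.26 in the NAc and from -5.77 to -0.95 in the mPFC, a difference of 2.92 ± 0.79. The uncharacterised transcript 1700012D14Rik was above background on 5 NAc arrays and 0 mPFC arrays, and was at least 2.21-fold higher in the NAc. Such a bound is taken against the background of the arrays and holds no sampling error. It compares means over all arrays of each group, those at background included, and need not hold on each array or scan day.

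On the lower side, Phf20, a PHD finger protein of a histone acetyltransferase complex, stood at -4.01 to -1.82 (median -2.95) in the NAc and -1.56 to 0.07 (median -0.55) in the mPFC. The 2 regions did not overlap, and the difference was -2.28 ± 0.59, -3.35 in naive and -1.22 in R-SDS mice. Taf6l, a subunit of a histone acetyltransferase complex, separated the regions less cleanly, at -3.46 to -1.90 and -2.05 to -1.15, a difference of -1.41 ± 0.32 (limma adjusted p = 0.769). Robo3, an axon guidance receptor, was above background on 4 mPFC arrays and 1 NAc array, with a difference of -1.75 ± 0.36 (limma adjusted p = 0.715). The axonemal dynein gene Dnah7a and the crystallin gene Crygn had smaller differences of -1.12 ± 0.27 and -0.99 ± 0.25 without overlap. Other probes of Dnah7a gave -0.30 and 0.41. With normexp, Phf20 alone passed, at -1.07 (limma adjusted p = 0.0169).

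**Figure D1:**
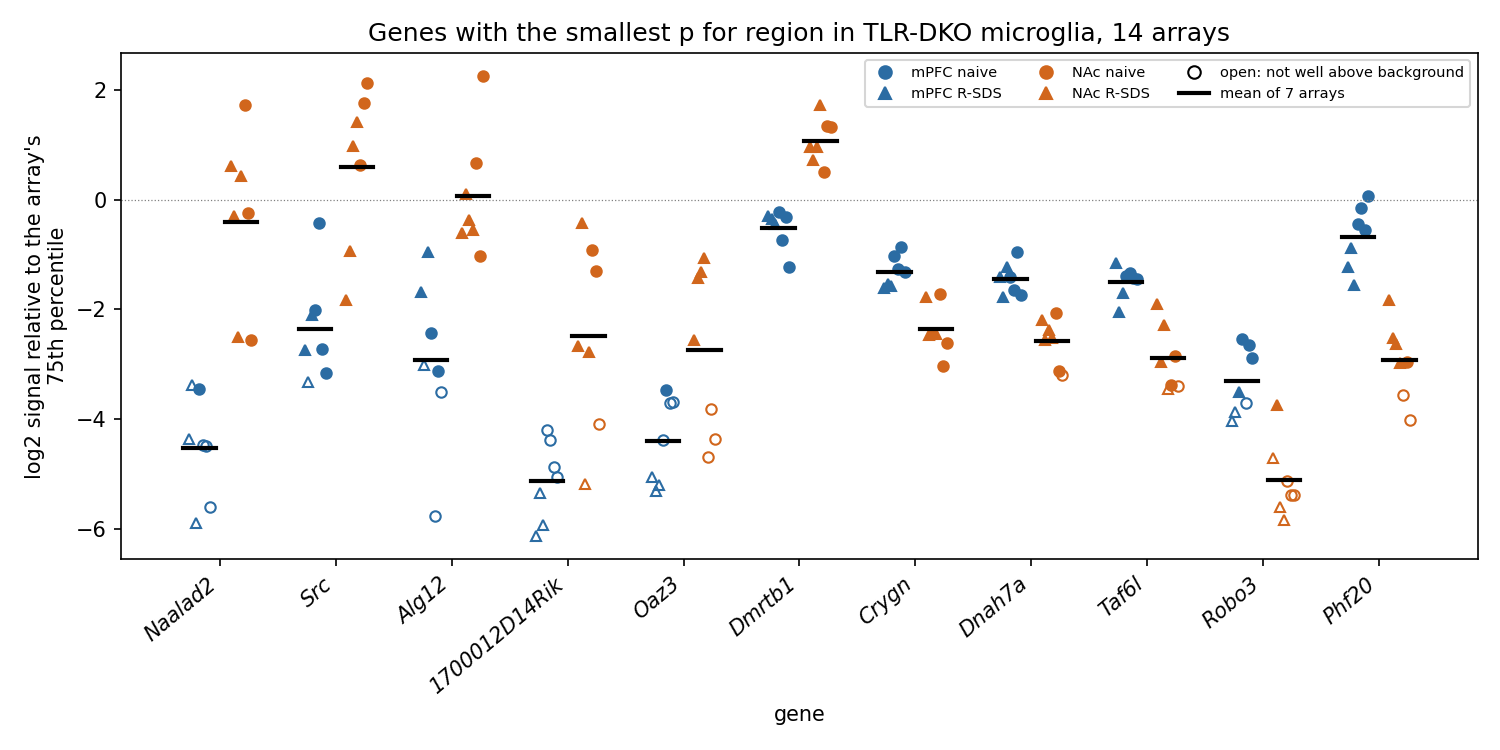
Level of 11 of the genes with the smallest p for region, 6 higher and 5 lower, on each of the 14 TLR-DKO arrays (vertical axis, level in log2 units; circles naive, triangles R-SDS; open symbols not well above background; black lines, means of 7 arrays). Naalad2 and Dmrtb1 have every NAc array above every mPFC array, and many low values on either side are at background.

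Counting genes by separation alone, 72 genes (0.291%) had all 7 NAc arrays below all 7 mPFC arrays, and 44 of them were above background on all 14. Their median difference was -0.83. How many genes would separate in either direction with exchanged region labels was not tested. Named examples that also separated the regions in WT included Neurog1, a proneural transcription factor, Rprml, and Cpt1b, which carries fatty acids into mitochondria. Neurog1 stood at -5.22 to -3.35 in the NAc and -3.08 to -1.61 in the mPFC, a difference of -1.43 ± 0.37. Rprml stood at -4.37 to -2.59 and -2.13 to -1.47, and Cpt1b at -2.89 to -1.99 and -1.93 to -0.68. In WT 179 genes (0.724%) separated downwards, and 16 were in both sets, which is 22.2% of the TLR-DKO set and 8.94% of the WT set. Of the 72 genes, 67 were below 0 in WT, where 55.7% of all genes were, and 44 had an unadjusted p under 0.05 on the lower side there, against 4.56% of all genes. Slides are shared between genotypes, so the WT arrays are not free of whatever a slide adds.

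The 6 genes that separated upwards included 4 with a RefSeq name, Naalad2, Dmrtb1, Crym and Zbtb5, the last pair being singled out after their values were seen. Crym, a thyroid hormone-binding protein, had the highest fitted positive difference of all genes, 4.47 ± 1.31 (unadjusted p = 0.00263, limma adjusted p = 1.00). Its NAc levels ran from -3.52 to 0.61 (median -0.95), all 7 above background. Its mPFC levels ran from -6.09 to -5.46 (median -5.91), none of the 7 above it. The size of the difference therefore depends on mPFC values at background. The difference was 4.68 in naive and 4.26 in R-SDS mice, 3.32 and 5.21 on the 2 scan days, and 2.61 in WT. Zbtb5, a zinc finger factor, was higher by 2.33 ± 0.87 in TLR-DKO and at -2.23 ± 0.92 in WT. Naalad2 and Crym thus kept their sign in both genotypes, and Zbtb5 did not.

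Genes that mark perivascular macrophages were lower in the NAc as a group. The list holds 13 genes, among them scavenger receptors, lectins, other receptors, enzymes and secreted factors, used to tell vessel-associated macrophages from microglia. All 13 measured members were below 0, with a median difference of -2.16, where the median of all genes was -0.04 and 53.8% of genes were below 0. No member passed (0 of 13, background 0%), and 6 of 13 had an unadjusted p under 0.05 on the lower side, where 2.67% of all genes did. The list and its members were chosen with earlier results of these data known. Markers of a cell type are not independent replicates, so these counts are a description only. In bulk samples fewer cells of a type and less RNA per cell cannot be told apart.

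The summed linear level of the 13 genes was 3.00 to 17.4 (median 9.83, relative to the 75th percentile as 1) on NAc arrays and 16.9 to 109 (median 23.1) on mPFC arrays, so the ranges met only at their ends. As a mean of log2 levels, the mPFC arrays stood at 0.48, -0.40, 1.32 and -1.24 in naive mice and -0.46, -0.91 and -1.90 after R-SDS. The NAc arrays stood at -1.31, -3.31 and -4.23 in naive mice and -1.26, -1.51, -4.32 and -2.66 after R-SDS. The lowest mPFC array, R-SDS replicate 3, therefore lay among the NAc arrays. Replicate 3 of NAc naive (-4.23) and of NAc R-SDS (-4.32) had the lowest means. Their shares of spots well above background, 49.97% and 52.15%, were also the lowest of the TLR-DKO arrays. Next came mPFC R-SDS replicate 2 with 52.63%, whose mean was -0.91. NAc naive replicate 2 had 58.85% and a mean of -3.31. Whether the dimness of an array lowers these means was not tested.

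F13a1, the A subunit of coagulation factor XIII, had the lowest difference of all 24739 genes by the probe that stands for it. Its mPFC levels were 4.15, 3.91, 4.95 and 3.27 in naive mice and 1.19, -2.41 and 3.18 after R-SDS, all above background. Its NAc levels were 0.01, -6.10 and -5.38 in naive mice and 1.11, 2.20, -5.56 and -3.76 after R-SDS, with 3 of 7 above background. Every naive mPFC array was thus above every NAc array, while the R-SDS arrays overlapped with the NAc, and the difference was -4.81 ± 1.41 (unadjusted p = 0.00270, limma adjusted p = 1.00). It was -0.94 on the first scan day and -8.81 on the second, where it passed (limma adjusted p = 0.0210), and -6.16 in WT. Another F13a1 probe, above background on 5 of the 14 arrays, gave -0.29, and 0.93 after R-SDS.

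Mrc1, the mannose receptor CD206, was at 0.76, 0.79, 1.67 and -0.78 in naive and 0.40, 0.43 and -1.63 in R-SDS mPFC, and at -1.55, -1.75 and -4.88 in naive and -0.18, -0.96, -4.95 and -1.10 in R-SDS NAc. Of the 7 NAc arrays, 2 were at background, and the difference was -2.38 ± 1.13. Cbr2, a carbonyl reductase, ranged from -5.56 to 1.27 (median -3.74) in the NAc and from -4.34 to 1.81 (median 1.31) in the mPFC, a difference of -3.19 ± 1.33. Another Cbr2 probe, above background on 7 arrays, gave -1.15, and 0.53 after R-SDS. The platelet factor 4 chemokine gene Pf4 ranged from -5.55 to 1.71 (median -0.68) and from 0.59 to 3.95 (median 1.24), a difference of -3.44 ± 1.62. In each of these genes the spread between NAc arrays was wide, with replicate 3 of both NAc groups near background. Those arrays also had the lowest shares of spots well above background among the TLR-DKO arrays, 49.97% (naive) and 52.15% (R-SDS).

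Cd163, the haemoglobin scavenger receptor, was not above background on any NAc array and was above it on 5 of 7 mPFC arrays, which makes it at least 1.34-fold lower in the NAc (fitted difference -2.11 ± 0.78). Ms4a7, a tetraspan membrane protein of macrophages, differed by -2.59 ± 1.06. The lectin Clec10a, the hyaluronan receptor Lyve1 and the lectin Cd209f stood at -2.89 ± 1.75, -2.16 ± 1.47 and -1.92, and the endothelin receptor gene Ednrb at -1.13 (0.24 by another probe). The folate receptor Folr2 (-0.66), the sialoadhesin gene Siglec1 (-0.21, and -1.75 by another probe) and the scavenger receptor Stab1 (-0.06) differed by less than 1 log2 unit. Only Cd163, the 1 member with no NAc array above background, could be set to its bound. Its fitted value already lay above the median, so the median of -2.16 could not move. Other members keep NAc values at background, and with normexp the median was -1.10.

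**Figure D2:**
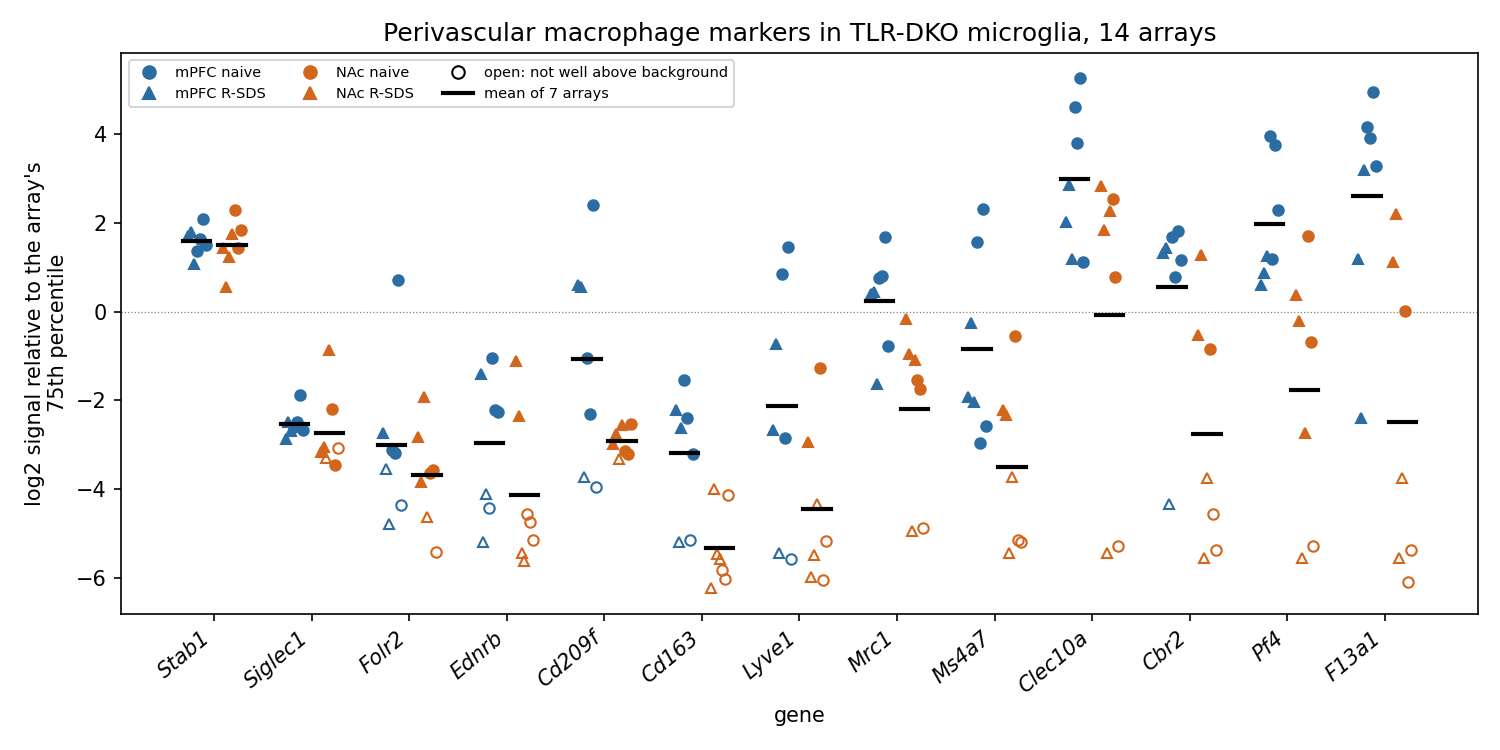
Level of the 13 perivascular macrophage markers on each TLR-DKO array, ordered by difference (vertical axis, level in log2 units; circles naive, triangles R-SDS; open symbols not well above background; black lines, means of 7 arrays). Every fitted difference is below 0, from -4.81 for F13a1 to -0.06 for Stab1, and need not equal the gap between the black lines. Several NAc arrays are at background for most members.

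In naive mice the median was -2.80 with 12 of 13 below 0, and 5 of 13 were lower at an unadjusted p under 0.05 (3.82% of all genes). After R-SDS it was -1.53 with 11 of 13 below 0, and 0 of 13 were lower at that p (1.05% of all genes). The test of the difference between the conditions gave a median of 1.56, with 11 of 13 members above 0 and 1 of 13 at an unadjusted p under 0.05, where 2.01% of all genes were higher. Within the first scan day the median was -1.45 with 11 of 13 below 0, and within the second -2.25 with 12 of 13. It was -1.98 without mPFC naive replicate 1, the array that stands apart, with 4 of 13 at an unadjusted p under 0.05. Leaving out each array in turn, the median ran from -2.59 to -1.94 and the count at an unadjusted p under 0.05 from 2, without NAc naive replicate 3, to 6. Only 1 of the 13 was above background on all 14 arrays, so the filter on bright genes leaves that single member, at -0.06. In WT the median was -1.98 with 13 of 13 below 0, and the difference between genotypes had a median of 0.26.

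Antigen presentation genes, which perivascular macrophages also express, stood at a median of -0.13, with 14 of 21 below 0 and 2 of 21 lower at an unadjusted p under 0.05 (2.67% of all genes). H2-Aa, a chain of an MHC class II molecule, was above background on 3 NAc and 6 mPFC arrays, at -5.99 to 0.55 (median -4.03) and -4.50 to 3.40 (median 0.30). Its difference was -2.57 ± 1.22, of which the first scan day gave -5.54 and the second -0.26. Ciita, the transactivator of class II genes, was above background throughout, at 0.30 to 1.34 and 1.09 to 1.83, a difference of -0.63 ± 0.29. H2-Ab1, H2-Eb1 and the invariant chain gene Cd74 stood at -1.21, -0.90 and -0.78, and the class I genes H2-K1 and B2m at -0.21 and -0.09. The part of perivascular macrophage RNA in these values was not tested.

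Genes of the homeostatic microglial programme were close between the regions in TLR-DKO mice. All 34 members were above background on all 14 arrays, and 16 were above and 18 below 0, with a median of -0.01 and a range of -0.26 to 0.58. None had an unadjusted p under 0.05. The list's mean level was 5.36 to 5.99 in the NAc and 5.37 to 5.73 in the mPFC. Members with small p included the lipid enzyme Lpcat2 (0.47 ± 0.41), the transcription factor Sall1 (0.24 ± 0.23), and the GTPase Rhob (0.20 ± 0.20). The sign of the median was not fixed, being -0.19 within the first scan day and 0.18 within the second. In WT the median was -0.28 with 26 of 34 below 0. The difference between genotypes had a median of 0.24 with 27 of 34 above 0. No member had an unadjusted p under 0.05 in either comparison (limma).

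Activation programmes had medians from -0.37 to 0.05. Disease-associated microglia genes had a median of -0.01 with 10 of 20 above 0, among them the lipid carrier Apoe at -0.84 ± 0.59 and the growth factor Igf1 at -0.84 ± 0.44. Other Igf1 probes, above background on 3 to 9 arrays, gave -0.46, 0.05 and 1.73. Lysosome genes had a median of -0.02 (14 of 31 above 0), phagocytosis and complement genes 0.05 (15 of 23 above 0), and type I interferon response genes -0.06 (7 of 20 above 0). Cytokines and chemokines stood at -0.37 (7 of 22 above 0) and NF-kappaB subunits and feedback genes at -0.31 (7 of 20 above 0). Within the 2 scan days NF-kappaB genes stood at 0.21 and -0.36, cytokines and chemokines at -0.03 and -0.35, and disease-associated genes at -0.54 and 0.07. Lysosome genes gave -0.21 and 0.07, and phagocytosis and complement genes -0.17 and 0.16, so only the cytokine and interferon medians kept their sign on both days. Tnfsf13b, the B cell factor BAFF, was 1 of the 7 cytokines above 0, with a median level of -1.23 in the NAc and -2.40 in the mPFC and overlapping arrays, a difference of 1.14 ± 0.54. No member of these 6 lists passed, nor did any member of the other 24, and 1 cytokine, Tnfsf13b, was higher at an unadjusted p under 0.05 (1.16% of all genes).

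Because the mice lack Toll-like receptors, that pathway was examined. Of 30 measured members, Tlr2 and Tlr4 included, 21 were above 0 and 9 below, with a median of 0.25, and 0 had an unadjusted p under 0.05. The receptor Tlr3, which senses double-stranded RNA, stood at 1.06 ± 0.61, and Ly96, the partner of Tlr4 in binding lipopolysaccharide, at 0.98 ± 0.60. Irak4, a kinase directly downstream of most receptors, was at -0.99 to 0.63 (median -0.23) in the NAc and -2.41 to -0.32 (median -1.53) in the mPFC, a difference of 1.21 ± 0.60. The arrays overlapped for all of these genes. Another Irak4 probe, also above background on all 14 arrays, gave -0.53, so the direction for this gene depends on the probe. The same holds for Tollip, which restrains the pathway, with -0.73 ± 0.38 and, from other probes above background on all 14 arrays, 0.72 and -0.24. In WT the median was 0.15, and that of the difference between genotypes 0.08.

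Cytosolic ribosomal protein genes lay slightly lower in the NAc. Of 46 members 44 were below 0, with a median of -0.34 and a range of -0.82 to 0.13, and 1 was lower at an unadjusted p under 0.05, close to the 2.67% of all genes. Rpl8 was at 3.20 to 3.87 (median 3.63) in the NAc and 3.70 to 4.66 (median 3.79) in the mPFC, a difference of -0.59 ± 0.27. Rps7 and Rpl6 stood at -0.70 ± 0.40 and -0.82 ± 0.45. The list's mean level was 4.54 to 4.99 in the NAc and 4.74 to 5.55 in the mPFC, so the ranges overlapped. The median was -0.53 within the first scan day, with 45 of 46 below 0, and -0.06 within the second, with 30 of 46. WT had -0.31 with 43 of 46 below 0. Oxidative phosphorylation genes had a median of -0.12, with 25 of 37 below 0.

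**Figure D3:**
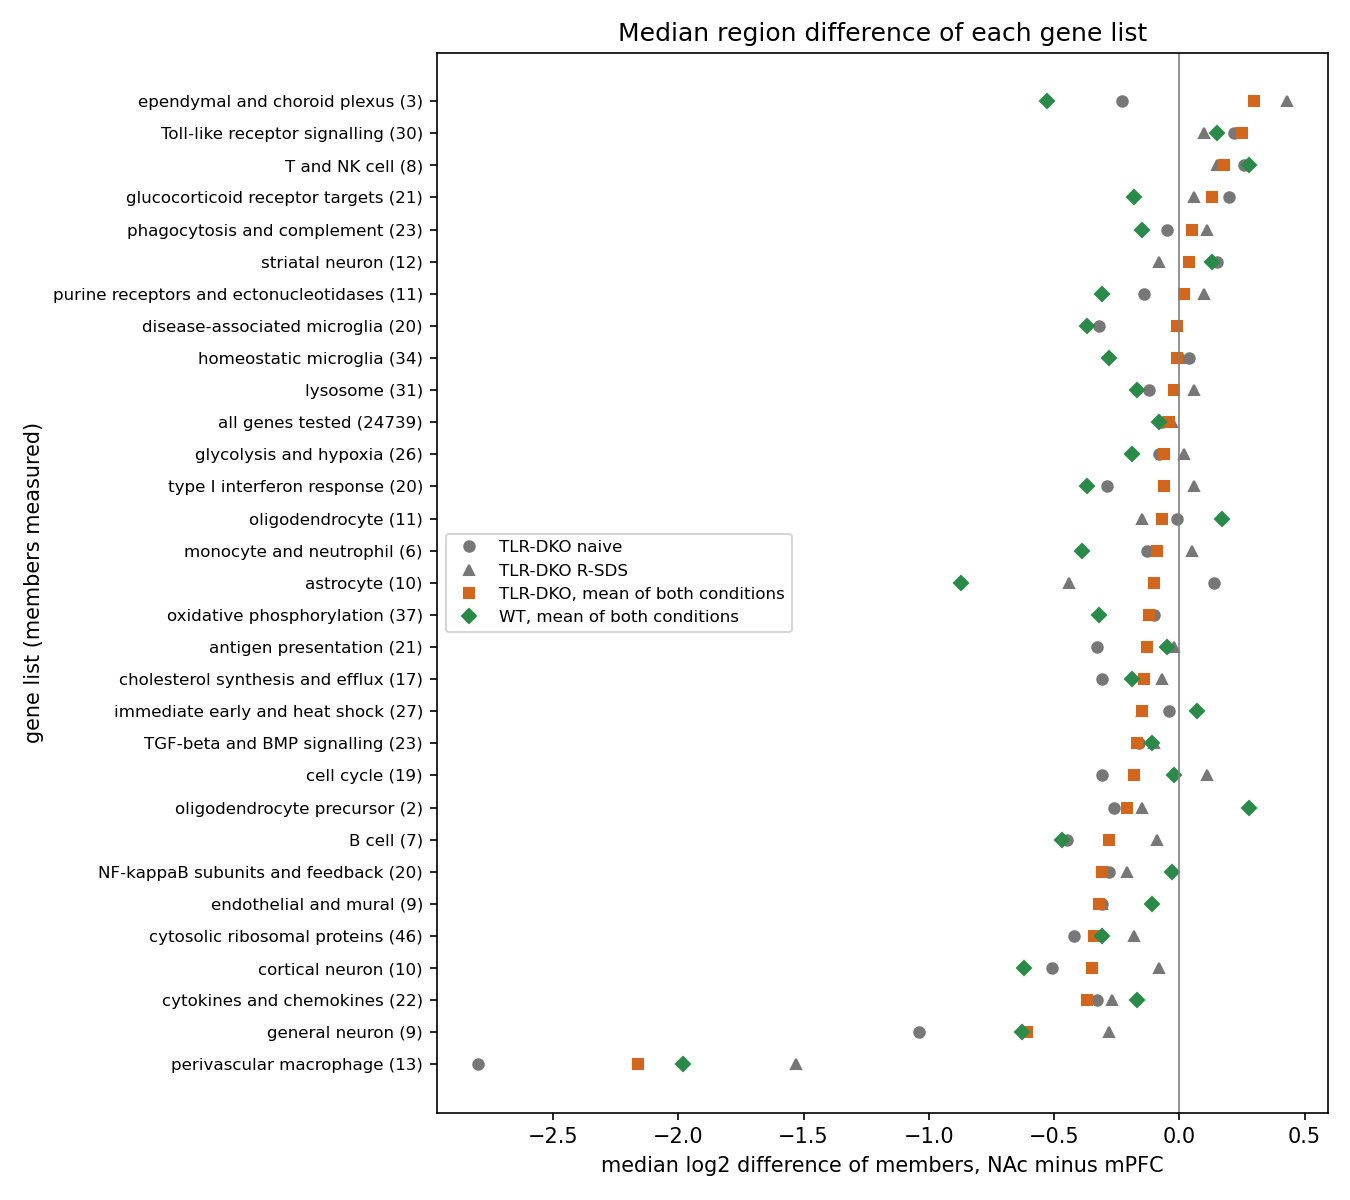
Median difference of the members of each of 30 gene lists and of all genes tested (horizontal axis, NAc minus mPFC in log2 units; number of members measured in brackets), for TLR-DKO naive, TLR-DKO R-SDS, TLR-DKO over both conditions and WT. Perivascular macrophage markers lie far to the left in all 4, at -2.80, -1.53, -2.16 and -1.98.

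Markers of neurons were examined because the cells were sorted from punches of tissue that also holds neurons. The share of neuronal RNA in these samples was not tested. General neuron markers had a median of -0.61, with 8 of 9 below 0 and 0 at an unadjusted p under 0.05, and their mean level was -2.17 to -0.86 in the NAc and -1.61 to -0.02 in the mPFC. Cortical neuron markers stood at -0.35 (6 of 10 below 0). Neurod2, a transcription factor of glutamatergic neurons, was at 0.19 to 0.67 (median 0.47) in the NAc and 0.50 to 1.88 (median 0.83) in the mPFC, a difference of -0.63 ± 0.26. The postsynaptic protein gene Nrgn was above background on all 7 mPFC arrays and 3 NAc arrays, with a difference of -1.48 ± 0.98.

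Striatal neuron markers had a median of 0.04, with 6 of 12 above 0, and 2 of 12 were higher at an unadjusted p under 0.05, against 1.16% of all genes. Penk, which encodes the opioid precursor proenkephalin, had NAc levels of 1.46, 0.41 and -3.22 in naive mice and -1.03, -0.62, -0.43 and -1.03 after R-SDS. Its mPFC levels were -1.08, -4.85, 0.97 and -4.20 in naive mice and -5.86, -4.41 and -4.47 after R-SDS. The R-SDS arrays thus separated by region, where Penk was at least 7.03-fold higher, while the naive arrays overlapped. Over both conditions the difference was 3.03 ± 1.06 (unadjusted p = 0.00972, limma adjusted p = 1.00). Syndig1l, a transmembrane protein enriched in striatum, was above background on 4 NAc arrays and 0 mPFC arrays, and was at least 3.01-fold higher. Its difference was 0.43 on the first scan day and 5.18 on the second. The other 10 measured members, such as the dopamine receptor gene Drd2 (-0.71 ± 0.54), the striatal phosphoprotein gene Ppp1r1b (0.86 ± 0.81) and Adora2a (0.36 ± 0.39), ranged from -0.71 to 0.86. Of the 23 listed genes 11, including Drd1 and Tac1, did not pass the filter on dim probes. That filter can admit a gene through NAc groups alone, and no TLR-DKO mPFC group could have admitted Syndig1l. The count of 2 of 12 is therefore a description only.

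Other cell types gave small or mixed values. Gja1, the astrocyte connexin 43, was above background on 5 mPFC arrays and 0 NAc arrays and at least 1.44-fold lower in the NAc, while the astrocyte list had a median of -0.10 (6 of 10 below 0). The tight junction gene Cldn5 was at -4.60 to -2.82 in the NAc and -3.30 to -2.10 in the mPFC, a difference of -0.84 ± 0.34. Tek, the angiopoietin receptor of endothelial cells, went the other way at 1.24 ± 0.54, and the list of endothelial and mural markers had a median of -0.32 (7 of 9 below 0). Oligodendrocyte markers stood at -0.07, and those of monocytes and neutrophils at -0.09, of T and NK cells at 0.18 and of B cells at -0.28.

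**Figure D4:**
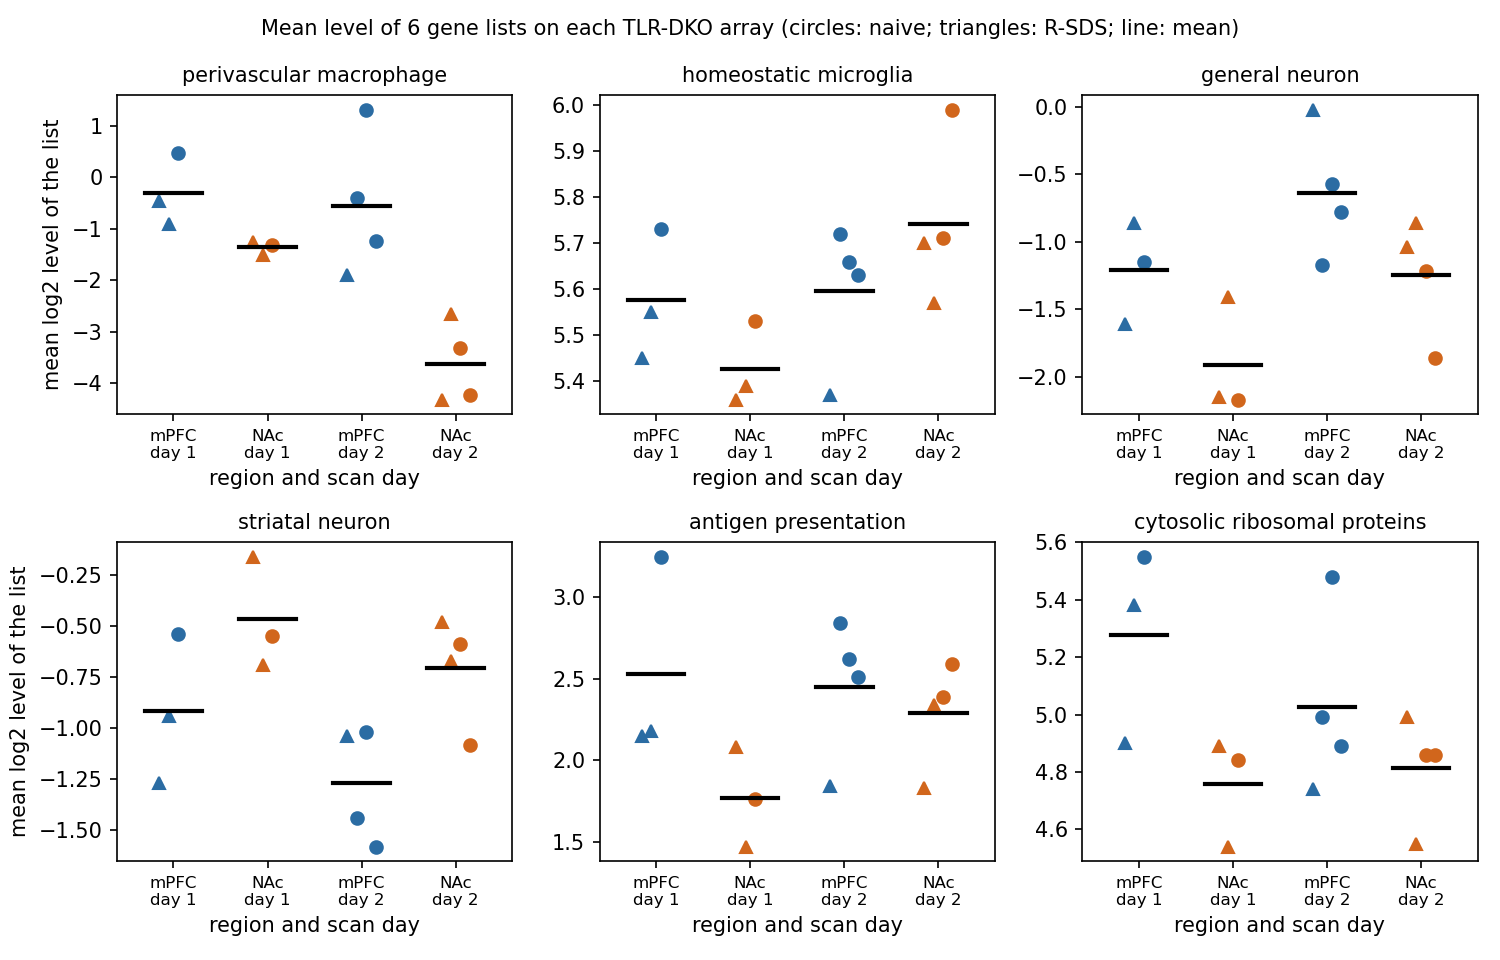
Mean log2 level of 6 gene lists on each TLR-DKO array, split by region and by scan day (circles naive, triangles R-SDS; black lines, means). Perivascular macrophage markers are lower in the NAc on both days, with list medians of -1.45 and -2.25, whereas the ribosomal list differs mostly on the first day (-0.53 against -0.06).

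The regions were then compared within each condition. In naive mice 0 of 24739 genes passed (0%, limma, smallest adjusted p 0.292). At an unadjusted p under 0.05 there were 1524 (6.16%), 579 higher (2.34%) and 945 lower (3.82%) in the NAc. After R-SDS 1 gene passed (0.00404%), and 434 (1.75%) reached an unadjusted p under 0.05, 174 higher (0.703%) and 260 lower (1.05%). The same sign in both conditions was seen for 57.8% of genes, and the differences correlated across genes with an r of 0.11. Genes are not independent replicates, and the 2 values come from separate arrays on the same slides.

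Oaz3, a testis antizyme that inhibits ornithine decarboxylase in polyamine synthesis, was the gene that passed. After R-SDS its NAc levels were -2.55, -1.43, -1.31 and -1.06, all above background, and its mPFC levels were -5.05, -5.31 and -5.21, none above it. In naive mice the NAc stood at -4.69, -3.82 and -4.37 and the mPFC at -4.38, -3.47, -3.70 and -3.68, of which only mPFC replicate 2 was above background. The stressed NAc arrays were therefore higher than all 10 others. In R-SDS mice Oaz3 was at least 4.01-fold higher in the NAc (3.59 ± 0.45, limma adjusted p = 0.00210), against -0.49 in naive mice. The interaction, which tests whether the region difference changed with condition, was 4.07 ± 0.56 and also passed (limma adjusted p = 0.0115), the sole gene of 24739 to do so (0.00404%). At an unadjusted p under 0.05 the interaction had 974 genes (3.94%), 498 with a higher difference after R-SDS (2.01%) and 476 with a lower one (1.92%).

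The Oaz3 values were not equally firm under other processing. The difference after R-SDS was 3.19 within the first scan day and 4.02 within the second, and neither passed (limma adjusted p = 0.926 and 0.244). With normexp it was 0.93 (limma adjusted p = 1.00). The interaction missed the threshold without mPFC R-SDS replicate 2 (0.0573) or 3 (0.0937), without NAc naive replicate 1 (0.102) or 3 (0.0636), and with only the 14 TLR-DKO arrays (0.0569). In WT the difference over both conditions was 0.17. That value averages naive and stressed mice, so it is no counterpart of the difference after R-SDS. The WT difference after R-SDS was not tested separately.

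Other genes with a small p in 1 stratum are given as values. Tfap2d, an AP-2 transcription factor, stood at -2.74, -3.42, -2.91 and -3.06 on naive mPFC arrays, all above background, and was at background on the other 10, with a naive difference of -2.21 ± 0.39 (limma adjusted p = 0.292) and an interaction of 2.80 ± 0.49 (limma adjusted p = 0.139). Npm2, a nucleoplasmin of eggs that binds histones, was at 0.22, -1.86 and 1.06 on naive NAc arrays and at -4.71 to -2.46 on the other 11 arrays. Its naive difference was 2.76 ± 0.55, and it was -0.49 ± 0.55 after R-SDS. Both passed when NAc naive replicate 2 was left out (limma adjusted p = 0.0174 for Tfap2d and 0.00522 for Npm2 in naive mice). Mrap2, an accessory protein of melanocortin receptors, was at 0.18, -3.36, 1.47 and 1.01 in naive mPFC and at -5.21 to -4.28, all at background, in naive NAc. Its difference was -4.50 ± 0.97, it passed without mPFC naive replicate 2 (limma adjusted p = 0.00536), and over both conditions it was -1.87, with -3.09 and -0.69 by other probes.

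Gpcpd1, which degrades glycerophosphocholine, was at background on all 4 naive mPFC arrays and above it on all other arrays, with differences of 3.35 ± 0.69 in naive and -0.17 ± 0.68 in R-SDS mice. Sos1, an activator of Ras, was above background on all 4 stressed NAc arrays, on 1 of 3 naive NAc arrays and on 0 mPFC arrays, and after R-SDS was at least 8.17-fold higher in the NAc. Fut11, a fucosyltransferase family member, had opposite signs, -2.07 ± 0.91 in naive mice and 3.31 ± 0.91 after R-SDS. Jakmip1, a neuronal microtubule-binding protein, was at -2.87, -1.62 and -0.23 on stressed mPFC arrays and at background on all 7 NAc arrays, so it was at least 4.31-fold lower in the NAc after R-SDS. Dclk1, a doublecortin-like kinase, had -2.60 ± 0.70 after R-SDS and -1.23 ± 0.70 in naive mice, and other probes gave -1.08 and -2.03 after R-SDS. None of these passed.

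**Figure D5:**
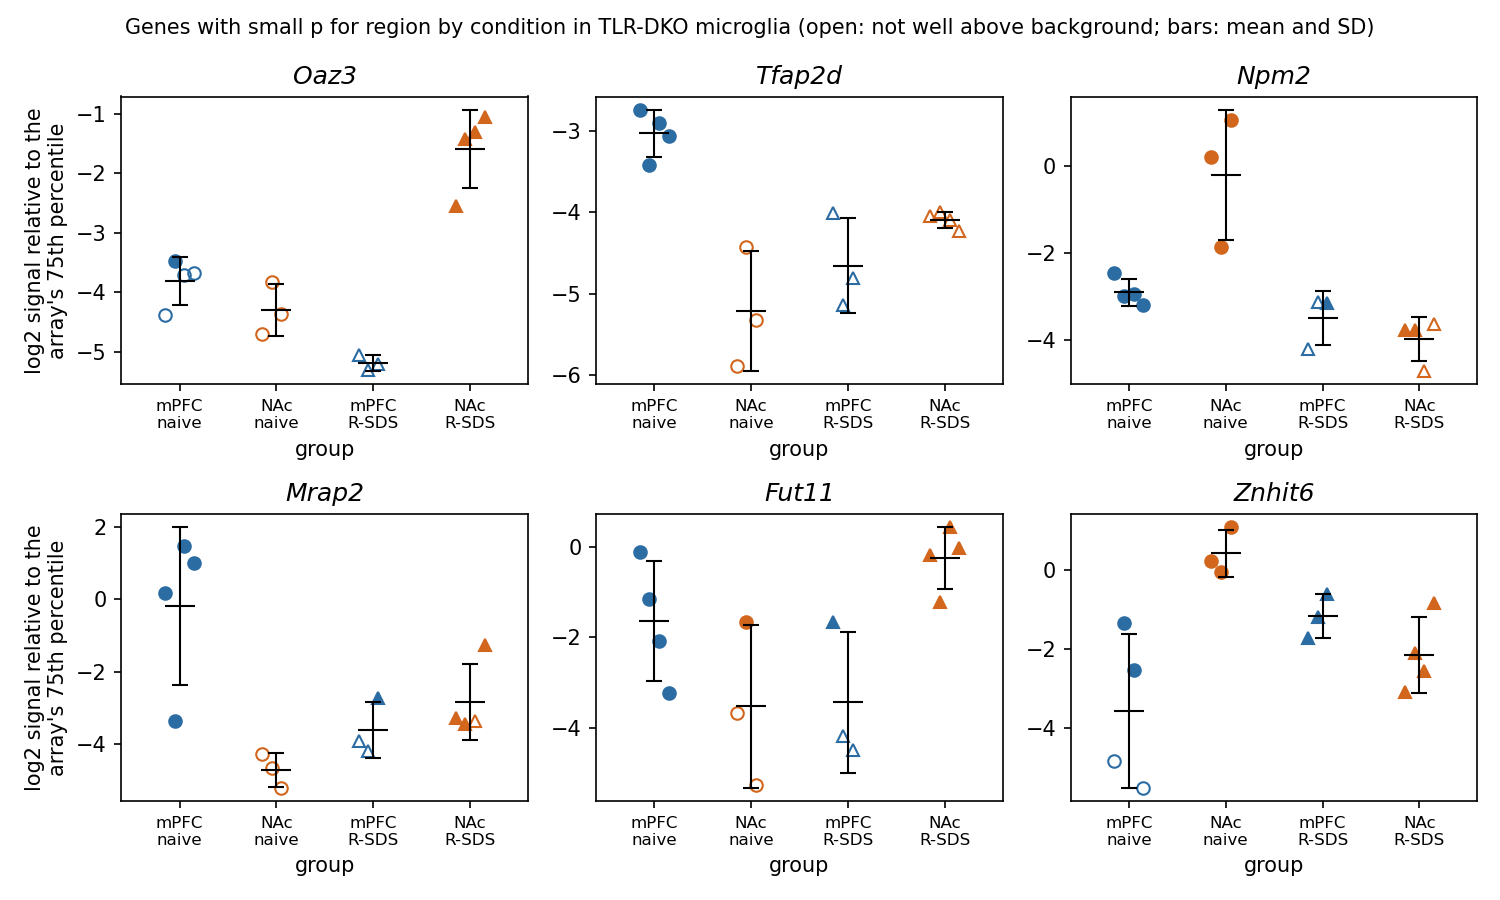
Level of 6 genes with a small p for the interaction of region and condition in the 4 TLR-DKO groups (vertical axis, level in log2 units; filled points well above background, open points not; black bars, mean and SD). The stressed NAc arrays of Oaz3, at -2.55 to -1.06, are higher than the 10 other arrays, and the other 5 genes did not pass.

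Whether the region difference in TLR-DKO microglia departs from that in WT was tested by the interaction of region and genotype. No gene passed (0 of 24739, 0%, limma, smallest adjusted p 0.389). An unadjusted p under 0.05 was found for 1011 genes (4.09%), 579 of them with a higher (2.34%) and 432 with a lower difference (1.75%) in TLR-DKO. In WT itself 0 genes passed (0%, smallest adjusted p 0.596), while 1609 (6.50%) reached an unadjusted p under 0.05, 480 higher (1.94%) and 1129 lower (4.56%) in the NAc. Differences in the 2 genotypes had the same sign for 64.1% of genes and an r of 0.23 across genes. The genotypes share slides, and this number is a description only. Stressed WT mice were labelled susceptible and stressed TLR-DKO mice resilient, so genotype and that outcome cannot be told apart in the stressed arrays.

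Src had the smallest p of the named genes for that interaction, with 3.07 ± 0.65 in TLR-DKO and -0.76 ± 0.68 in WT (interaction 3.82 ± 0.77, unadjusted p = 6.57e-05, limma adjusted p = 0.714). The forkhead factor Foxc1 stood at -0.35 in TLR-DKO and 1.31 in WT. The fatty acid and lipoprotein receptor Cd36 stood at 1.47 and -2.46, and the zinc finger factor Zfp354a at 1.81 and -1.92. These differences were not past the threshold.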

How the data were processed

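RNA from sorted EGFP-positive cells was amplified, labelled with Cy3 and hybridised to 1-colour Agilent arrays, per the labels' protocols. The deposited scanner files give spot intensity on a linear scale, per the file headers. The submitters' processing notes name Agilent Feature Extraction 11.0.1.1, whose processed signal is already background-subtracted. The authors' deposited table of log2 values had a Pearson r of 1 with these signals on every array and an offset no larger than 0.062. That table served as an alternative, and its column medians ran from -2.90 to -2.21. Its scale and centring are not given in the sources used here, and were read from that comparison.

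Each spot's value was log2 of the processed signal minus the 75th percentile of the array's 59305 non-control spots. Dropping control and outlier spots cost 108 probes. There were 0 saturated spots. Spots of a probe were averaged, and the probe with the highest mean stood for its gene. Gene names came from accessions looked up in RefSeq (GRCm38.p6, for names only), where 28020 of 29796 RefSeq-style probes matched. A gene was tested if some group among the 8 had 3 or more arrays well above background, which left 24739 genes, 14369 of them with a RefSeq name.

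All 26 arrays were fitted as 8 group means with limma 3.58.1 (R 4.3.3, statmod 1.5.0), with slide as a random block (consensus correlation 0.137), a two-sided test and Benjamini-Hochberg adjustment. The region difference is the mean of the naive and the R-SDS difference. Fits with an array left out kept the correlation of 0.137. The script was tested on simulated data. The comparison, the gene lists and their members were chosen with earlier results of these data known. Genes with a RefSeq name were named by a rule: the smallest p in each direction (up to 6 for region over both conditions, up to 4 for strata and interactions), up to 4 members of a list with the smallest p, and always Tlr2, Tlr4 and Cx3cr1. Named outside it, after their values were seen, were the other perivascular macrophage markers, H2-Eb1, Cd74, H2-K1, B2m, Ppp1r1b, Adora2a, Neurog1, Rprml, Cpt1b, Crym and Zbtb5. Alternatives covered the block, scan day, each array left out, scaling, background correction, probe choice, array weights and filters. Some genes that the rule names are not reported here.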

Additional observations from a re-analysis of the deposited data

Results flagged for a closer look

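Oaz3 had a region difference that differed between naive and R-SDS mice, with a limma adjusted p of 0.0115 for the interaction, 3.59 after R-SDS and -0.49 in naive mice.

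Among 154 groups of 4 arrays examined, 12 (7.79%) had a single array apart from the other 3 by more than 0.829 of the group's range. About 1 in 20 would do so among independent normal values. The groups share arrays, many genes were named for a small p and some values are at background, so that rate is no reference here. Among stressed NAc arrays, replicate 1 stood apart for Crygn (-1.77, gap 0.957 of the range), Sall1 (4.89, 0.920), Tlr3 (-2.36, 0.907) and Tek (-2.07, 0.884). Replicate 2 stood apart for H2-Ab1 (-1.62, 0.916), and replicate 3 for Clec10a (-5.43, at background, 0.879) and Npm2 (-4.71, 0.862). Replicate 4 stood apart for Mrap2 (-1.26, 0.926) and Siglec1 (-0.86, 0.902). Among naive mPFC arrays, replicate 1 stood apart for Syndig1l (-4.40, at background, 0.839), replicate 2 for Jakmip1 (-1.72, 0.908) and replicate 4 for Igf1 (-0.39, 0.939).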

How the results depend on the processing

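Over 43 alternatives, 29 of them planned, the count of genes that passed for region over both conditions was 0 except within the second scan day (2, F13a1 and BC082294) and with normexp (1, Phf20). In naive mice it was 6 within the first scan day, which holds 1 array of each region, 1 within the second (F13a1), 2 without the 2 outlying arrays and 1 with normexp, and 0 to 2 with each array left out in turn. For R-SDS, Oaz3 no longer passed within the first (0) or second scan day (0), with normexp (0) or among genes bright on all 14 arrays (0), where it is not measured. The condition interaction also gave 0 within either day (0 and 0), with normexp (0), with bright genes (0) and with only the 14 TLR-DKO arrays (0), and 0 to 3 with each array left out. The genotype interaction stayed at 0 under all that were run. Causes of these changes were not tested, except that the bright filter removes Oaz3 and a scan day holds fewer arrays.

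Same-numbered arrays of the 2 regions also share a scan day, and their deviations correlated at 0.003 to 0.193. As not every pair was over 0.1 and the labels do not tie the numbers to shared mice, they were not taken as pairs. With that number as a replicate block, 0 genes passed after R-SDS and 0 in the condition interaction, and Oaz3 had differences of 3.42 and 3.86 there (limma adjusted p = 0.364 and 0.981). The median of perivascular macrophage markers was -2.78 with the block and kept its sign under all 43 alternatives, from -2.78 to -0.06 (the single member bright on all arrays), and with normexp it was -1.10. Counts at an unadjusted p under 0.05 for region over both conditions ran from 385 (bright genes only) to 3043 (first scan day), in naive mice from 790 to 3372, after R-SDS from 143 to 1123 (array weights), for the condition interaction from 558 to 2363 and for the genotype interaction from 613 to 1971. In each of these ranges the lowest count came from bright genes only, where fewer than 24739 genes were tested. The counts therefore have no common total and cannot be compared as shares. Normexp on median signals, the fit without the 2 outlying arrays (TLR-DKO mPFC naive replicate 1 and WT mPFC R-SDS replicate 3) and those without each WT array were chosen after seeing the data. Dim probes limit the folds of the 9156 genes at background on at least 1 of the 14 arrays.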
